A study of Bos taurus with 12 samples.

Results

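The miR-196 family was followed in small RNA libraries of longissimus muscle, through the 3 features of the deposited table that carry its miRBase identifiers. These are bta-miR-196a-1 (MI0009767), bta-miR-196a-2 (MI0009766) and bta-miR-196b (MI0009768), 3 of 2712 small RNA features in all. All 3 were among the 368 miRNA features tested here, those that exceeded the floor of detection in 4 or more libraries. Angus-cross yearling steers by a common sire were brought onto a high concentrate diet of mostly rolled corn through step-up rations, and longissimus muscle was taken by needle biopsy after 0, 92 and 124 d on concentrates (d 0, d 92 and d 124). Small RNA of 4 steers was sequenced at each time, which gave 12 libraries. These steers had been picked from a larger set as nearest to its mean intramuscular fat, and are called steers 1 to 4 here by replicate number. The biopsy site was the left 11th rib at d 0, the right 11th rib at d 92 and the left 12th rib at d 124. No group stayed off the diet, so time, age and diet cannot be told apart, and the biopsy site differed at each time.

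MicroRNAs of the miR-196 family are encoded inside the HOX clusters, the arrays of transcription factor genes that set identity along the body axis of the embryo and keep a position-dependent expression in adult tissues. Their best known targets are HOX messages themselves, HOXB8 above all, which miR-196 silences by near-perfect pairing and cleavage. The family has also been tied to adipocyte formation, since miR-196a acts on HOXC8 in adipose progenitors. The miR-196a product is made from copies in separate HOX clusters, and miR-196b differs from it within the mature sequence. RefSeq annotates the build ARS-UCD2.0, while the authors aligned reads to bosTau4. There bta-miR-196a-1 is encoded inside the span of HOXB9, before HOXB8. The gene of bta-miR-196a-2 is found between HOXC9 and HOXC10, and that of bta-miR-196b between HOXA10 and HOXA9, inside the span of the predicted gene LOC132345112. Each member thus has a HOX9 gene as its neighbour or host. How reads that match both copies of bta-miR-196a were assigned by the authors is not known here.

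Values are normalized levels after quantile normalization by the authors, which gives every library the same set of levels. The scale is taken here as log2, since the study's methods name no base. A floor of 0, or 1 on the linear scale, was read from the values, since the methods name none. The deposited table holds each feature's level minus its median over the 12 libraries. The subtracted medians of the 3 members were recovered and are added back here. The miRNA features with a level over the floor numbered 336 to 353 at d 0, 329 to 354 at d 92 and 333 to 349 at d 124. The table holds no read counts, so the depth behind a value is unknown. Of 7 skeletal muscle miRNAs listed for a check of the tissue, 1 could be paired with an identifier. This was bta-miR-208b, which is encoded in the slow myosin gene MYH7, and its level lay between 8.68 and 11.06 over the 12 libraries.

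All 3 members were well above the floor in every library and of middle abundance. Over the 12 libraries the level of bta-miR-196a-2 lay between 7.39 and 10.55, with a median of 9.46. That of bta-miR-196a-1 lay between 6.67 and 9.94 (median 8.65), and that of bta-miR-196b between 6.88 and 9.31 (median 8.22). Among the 360 tested features with a recovered level, bta-miR-196a-2 ranked between 102 and 168 from the top, bta-miR-196a-1 between 119 and 184 and bta-miR-196b between 133 and 186. The order within a library was steady at its upper end only, since bta-miR-196a-2 was above the other members in 12 of 12 libraries, while bta-miR-196b was above bta-miR-196a-1 in 3 of 12.

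The level of bta-miR-196a-2, the copy of the HOXC cluster, was 9.71, 9.55, 9.74 and 10.55 at d 0 in steers 1, 2, 3 and 4. At d 92 it was 7.97, 8.98, 10.20 and 9.37 in the same order, and at d 124 it was 7.39, 8.65, 9.87 and 8.24. Steers 1, 2 and 4 were lower at each later biopsy, while steer 3 was above its d 0 level at both later times. Means were 9.89 ± 0.45 (SD, n = 4) at d 0, 9.13 ± 0.93 at d 92 and 8.54 ± 1.03 at d 124. The groups overlapped, because the d 124 library of steer 3 lay within the range of d 0 and the other 3 lay below it.

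For bta-miR-196a-1, the copy of the HOXB cluster, the level at d 0 was 8.80, 8.72, 8.95 and 9.94 in steers 1 to 4. It was 6.96, 7.99, 9.59 and 8.58 at d 92, and 6.67, 7.77, 8.92 and 7.30 at d 124. Steer 3 again had the highest library at both later times, and steer 1 the lowest. Means were 9.11 ± 0.57 (SD, n = 4), 8.28 ± 1.10 and 7.66 ± 0.95 at d 0, d 92 and d 124.

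The level of bta-miR-196b, of the HOXA cluster, was 8.69, 8.39, 8.60 and 9.31 at d 0, 7.36, 8.06, 8.74 and 7.96 at d 92, and 7.27, 7.54, 8.67 and 6.88 at d 124 in steers 1 to 4. Its libraries spread less than those of the copies, over a range of 2.43 against 3.28 for bta-miR-196a-1 and 3.16 for bta-miR-196a-2. In steer 3 its level hardly moved, within 0.15 over the 3 times, while in steer 4 it moved by 2.43. Means were 8.75 ± 0.40 (SD, n = 4) at d 0, 8.03 ± 0.57 at d 92 and 7.59 ± 0.77 at d 124.

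**Figure D1:**
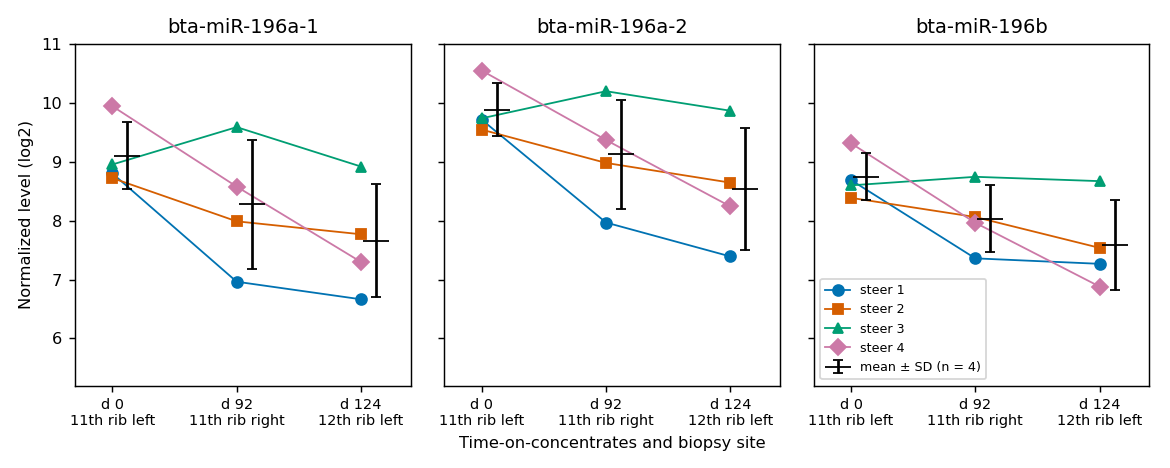
Normalized level (log2) of the 3 members by time-on-concentrates and biopsy site, 1 line per steer, with the mean and SD of the 4 libraries in black beside the points. In all 3 panels steers 1, 2 and 4 lie lower at d 124 than at d 0, and steer 3 stays near its d 0 level, between 8.67 and 9.87 at d 124.

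The largest differences in mean were between d 124 and d 0. The log2 fold change in limma was -1.44 for bta-miR-196a-1, with a standard error (SE) of 0.63 and an adjusted p of 0.496. This is 2.72-fold lower at d 124. It was -1.35 for bta-miR-196a-2 (SE 0.58, adjusted p = 0.496), or 2.55-fold lower, and -1.16 for bta-miR-196b (SE 0.40, adjusted p = 0.468), or 2.23-fold lower. Adjusted p-values here and below are Benjamini-Hochberg values from limma over the 368 features, and 0 of the 3 members passed 0.05. Over all 368 features 0 passed (0%), with a smallest adjusted p of 0.276, while 33 had an unadjusted p under 0.05. In bulk tissue, fewer cells of a type and less RNA per cell cannot be told apart.

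At an unadjusted p under 0.05 with a change of 1.3-fold or more, the limits named in the study's methods, 3 of 3 members passed as lower at d 124. Over all tested features 28 of 368 did (7.61%), and 5 passed as higher. With libraries centred on their median, which moved the median of all log2 fold changes by 0.14, the split was 17 higher and 23 lower. The members' log2 fold changes were then -1.30, -1.21 and -1.02 for bta-miR-196a-1, bta-miR-196a-2 and bta-miR-196b. The count of 3 is from limma's comparison of d 124 with d 0, while the study's methods name an analysis of variance by time. Limma's F over the 3 times gave an unadjusted p of 0.106 for bta-miR-196a-1, 0.104 for bta-miR-196a-2 and 0.0347 for bta-miR-196b. The study lists all 3 as lower at d 124 from these same libraries, so this count is not independent evidence. Reads of the copies may be shared, so the 3 members may not be 3 separate measurements. The count also hung on single libraries. Without d 0 replicate 4, the library with the highest level of each member, the log2 fold changes were -1.16, -1.13 and -0.97 and 0 of the 3 members passed these limits. Without d 124 replicate 1 they were -1.11, -0.97 and -1.05, and bta-miR-196b alone passed. Leaving out d 0 replicate 3 or d 124 replicate 4 also ended the call of both copies, as did leaving out d 0 replicate 1 for bta-miR-196a-2 and d 92 replicate 4 for bta-miR-196a-1.

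Two-sided exact permutation tests of d 124 against d 0, over 70 regroupings, gave p = 0.0857 for bta-miR-196a-1, p = 0.114 for bta-miR-196a-2 and p = 0.0857 for bta-miR-196b. Regroupings in this test and in the exact tests below do not take into account that each steer gave a library at each time. The smallest p that the 70 regroupings allow is 0.0286. Over all 368 features 10 reached it, and 0 passed 0.05 after adjustment over the 368. Within steers, bta-miR-196a-1 was lower at d 124 in 4 of 4, by 2.14, 0.95, 0.035 and 2.64 in steers 1 to 4. The other members were lower in 3 of 4, since in steer 3 bta-miR-196a-2 differed by 0.13 and bta-miR-196b by 0.072 in the other direction. The difference in the mean therefore came mainly from steers 1 and 4.

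Beside all tested features, the members lay far to the low side. The median log2 fold change of the 368 features at d 124 against d 0 was -0.066, with 214 below 0 and 151 above. Counted from the lowest, bta-miR-196a-1 was at place 3, bta-miR-196a-2 at place 5 and bta-miR-196b at place 8. Among the 184 features with a median level of 7 or more, a cut set by hand, the members took places 1, 2 and 3. These places are a description, since the family was taken up with the study's list known.

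**Figure D2:**
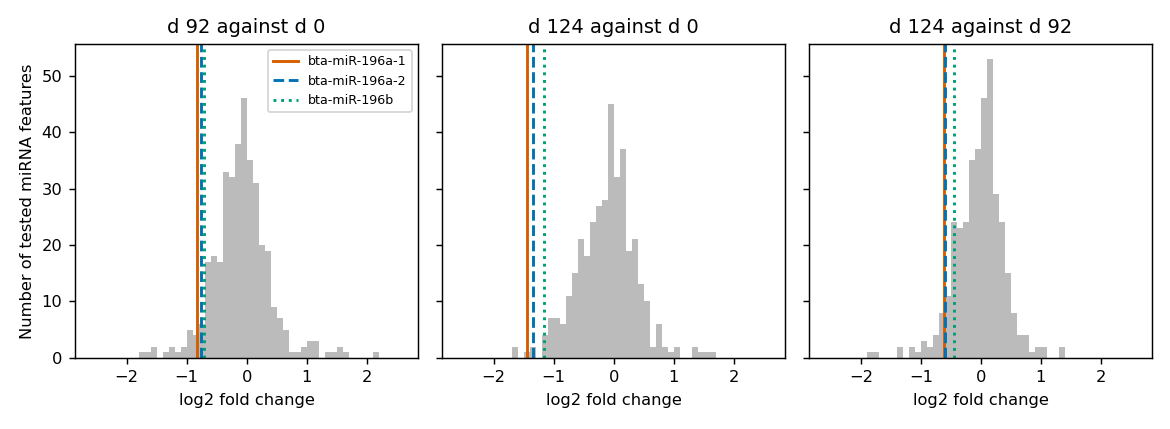
Histograms of the log2 fold change of the 368 tested miRNA features in 3 comparisons of times (bins of 0.1), with vertical lines for the 3 members. The lines lie at -1.44, -1.35 and -1.16 at d 124 against d 0, and nearer to the bulk of the features in the comparisons that involve d 92.

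The d 92 biopsies allow a comparison within 1 rib. At d 92 against d 0, both from the 11th rib but from opposite sides, the log2 fold change was -0.83 for bta-miR-196a-1 (SE 0.63 and adjusted p = 0.928). It was -0.76 for bta-miR-196a-2 (SE 0.58, adjusted p = 0.928) and -0.72 for bta-miR-196b (SE 0.40, adjusted p = 0.857). Exact permutation p-values (two-sided) were 0.229, 0.200 and 0.114 in that order. In 3 of 4 steers each member was lower at d 92, and in steer 3 it was higher, by 0.63, 0.46 and 0.15 for bta-miR-196a-1, bta-miR-196a-2 and bta-miR-196b. Of the members 0 were past an unadjusted p under 0.05 and 1.3-fold lower, against 14 of 368 features (3.8%), and 0 of 368 had an adjusted p under 0.05 in limma, with 19 at an unadjusted p under 0.05. Without d 92 replicate 3 the log2 fold changes were -1.26, -1.11 and -0.95, and without d 92 replicate 1 they were -0.39, -0.37 and -0.49.

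At d 124 against d 92, where rib and side both change, the log2 fold change was -0.62 for bta-miR-196a-1, -0.59 for bta-miR-196a-2 and -0.44 for bta-miR-196b (adjusted p = 0.974 for each). Every member was lower at d 124 in 4 of 4 steers, by between 0.22 and 1.28 for bta-miR-196a-1, between 0.33 and 1.13 for bta-miR-196a-2 and between 0.073 and 1.08 for bta-miR-196b. The 2 groups overlapped widely, and exact permutation tests (two-sided) gave p = 0.457, p = 0.400 and p = 0.400. Of the members 0 were past an unadjusted p under 0.05 and 1.3-fold lower, against 3 of 368 features (0.815%). The size depended on single libraries of both times. With 1 library left out, the value of bta-miR-196a-1 ran from -1.06 (steer 1 at d 92 left out) to -0.18 (steer 3 at d 92 left out). That of bta-miR-196a-2 ran from -1.04 (steer 3 at d 124) to -0.21 (steer 1 at d 124). For bta-miR-196b it ran from -0.80 (steer 3 at d 124) to -0.21, which was reached by leaving out either steer 3 at d 92 or steer 4 at d 124.

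The 4 libraries of the 12th rib were also set against the 8 of the 11th rib. The level of bta-miR-196b was 7.59 ± 0.77 (SD, n = 4) at the 12th rib and 8.39 ± 0.59 (SD, n = 8) at the 11th, which is lower by 0.80 on the log2 scale (SE 0.34, limma's adjusted p = 0.891). The copies differed by -1.03 for bta-miR-196a-1 (SE 0.54) and -0.97 for bta-miR-196a-2 (SE 0.51), both at an adjusted p of 0.920. Two-sided exact permutation tests over 495 regroupings gave p = 0.0808 for bta-miR-196b, p = 0.109 for bta-miR-196a-1 and p = 0.0990 for bta-miR-196a-2. The 8 libraries of the 11th rib are 2 from each of the same 4 steers, which these regroupings do not take into account. Each member was lower at the 12th rib than the steer's mean at the 11th in 4 of 4 steers. At an unadjusted p under 0.05 and 1.3-fold lower, 1 of the 3 members passed, bta-miR-196b, against 16 of 368 features (4.35%). Its call was lost without d 0 replicate 1 or 4, without d 92 replicate 3 and without d 124 replicate 1, 2 or 4. With the steer as a replicate block in limma, 3 of 3 members passed these limits, beside 24 of 368 features, at an adjusted p of 0.628 for each. Between the 2 biopsies of the 11th rib, from opposite sides, the log2 fold changes at d 92 against d 0 were -0.83, -0.76 and -0.72. These are for bta-miR-196a-1, bta-miR-196a-2 and bta-miR-196b, at adjusted p-values of 0.928, 0.928 and 0.857. All libraries of the 12th rib are of d 124, so rib and time cannot be told apart.

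The rows of the copies agreed closely. Both copies give the miR-196a product, and how reads that match both were assigned is not known. The rows may therefore not be separate measurements. The level of bta-miR-196a-2 was above that of bta-miR-196a-1 in 12 of 12 libraries, by a mean of 0.83 on the log2 scale with an SD of 0.14 and a range from 0.61 to 1.00. This is a ratio of 1.78 on the linear scale. The difference was 0.78 ± 0.13 (SD, n = 4) at d 0, 0.85 ± 0.19 at d 92 and 0.87 ± 0.10 at d 124. Its change of 0.092 between d 0 and d 124 was within the spread of the libraries (exact permutation test, two-sided, p = 0.343). The SD of this difference was 0.14, where the levels of the copies had an SD over libraries of 1.02 and 0.95.

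The difference between bta-miR-196b and bta-miR-196a-1 varied more. It was -0.36 ± 0.21 (SD, n = 4) at d 0, -0.25 ± 0.58 at d 92 and -0.073 ± 0.46 at d 124, a change of 0.28 between d 0 and d 124 (two-sided exact permutation test, p = 0.371). In steer 1 bta-miR-196b stood 0.11 below bta-miR-196a-1 at d 0 and 0.40 and 0.60 above it at d 92 and d 124. In steers 3 and 4 it was below bta-miR-196a-1 at every time.

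**Figure D3:**
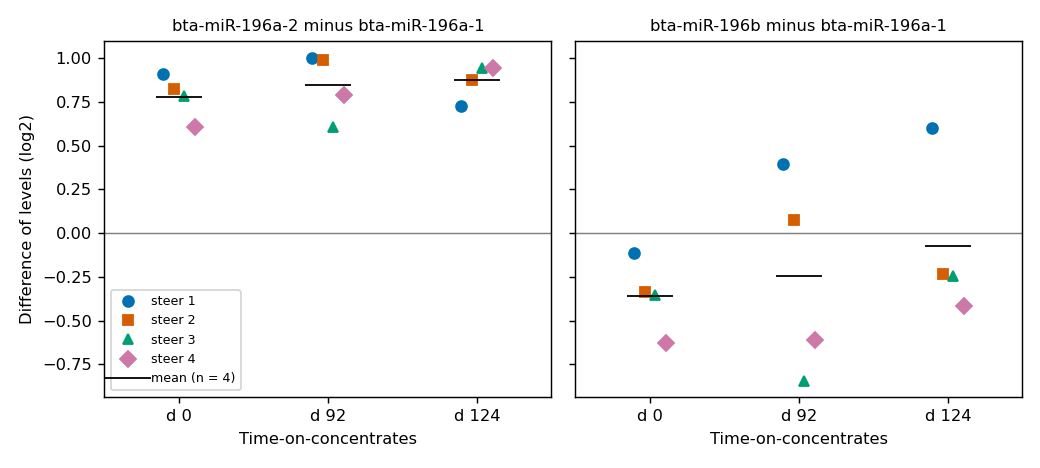
Difference of normalized levels (log2) within each library, bta-miR-196a-2 minus bta-miR-196a-1 on the left and bta-miR-196b minus bta-miR-196a-1 on the right, 1 point per steer and time with a bar for the mean of 4. The copies differ by 0.61 to 1.00 in all 12 libraries, while bta-miR-196b runs from 0.84 below to 0.60 above bta-miR-196a-1.

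The members moved together from library to library. Over the 12 libraries, Pearson's r was 0.993 between the copies, 0.938 between bta-miR-196a-1 and bta-miR-196b and 0.935 between bta-miR-196a-2 and bta-miR-196b. With the mean of each time removed, r was 0.989, 0.902 and 0.898. The mean profile of the family had a median r of 0.20 with the other tested features. These values are descriptions, since the libraries come from 4 steers, all features share the normalization, and reads of the copies may be shared in the counting.

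For their level the members varied widely. The SD over the 12 libraries was 1.02 for bta-miR-196a-1, 0.95 for bta-miR-196a-2 and 0.74 for bta-miR-196b, against a median of 0.52 over the 368 tested features. Of the 77 features with a median level within 1.5 of the family's middle member, whose median SD was 0.49, 1 varied more than bta-miR-196a-1, 3 more than bta-miR-196a-2 and 8 more than bta-miR-196b. The 77 include the members, so bta-miR-196a-1 is among those 3 and both copies are among those 8. The time took 36.5% of the sum of squares of bta-miR-196a-1, 36.6% of that of bta-miR-196a-2 and 45.9% of that of bta-miR-196b, where the median over tested features was 13.3%. The steer took 39.4%, 39.0% and 22.4%, beside a median of 31.4%. The family was taken up with the study's list from these same libraries known. Its spread and its share of time beside other features are therefore descriptions.

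Tests over all 3 times and over the steers did not pass after adjustment. For time, limma's F gave an adjusted p of 0.908 for each copy and 0.807 for bta-miR-196b, and 0 of 368 features passed 0.05 (0%) while 18 had an unadjusted p under 0.05. For the steer, with time in the fit, the adjusted p was 0.525 for each copy and 0.671 for bta-miR-196b, where 4 of 368 features passed (1.09%). The mean level of bta-miR-196a-1 over the 3 times was 7.48, 8.16, 9.15 and 8.61 in steers 1 to 4, and the other members had their highest mean in steer 3 and their lowest in steer 1 as well.

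**Figure D4:**
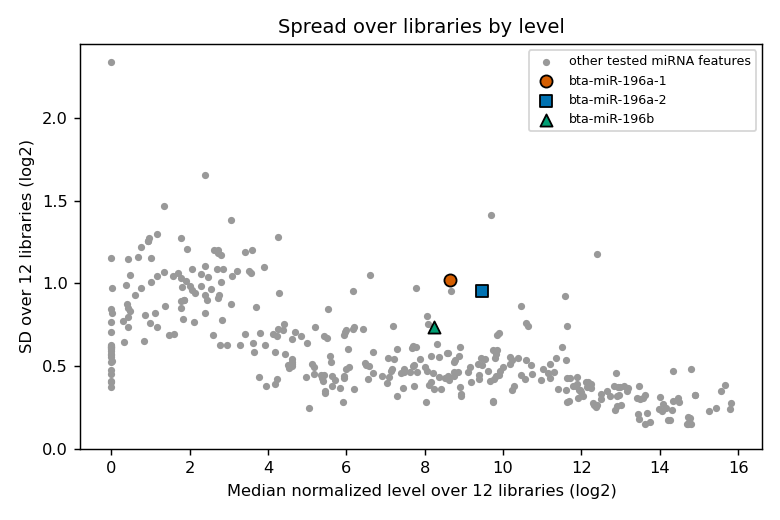
SD over the 12 libraries (log2) against the median normalized level (log2), 1 point per tested miRNA feature with a recovered level, with the 3 members in colour. The members, at 0.74 to 1.02, lie above most features of similar level.

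Other features of the table had profiles like that of the family. Ranked by Pearson's r over the 12 libraries with the mean deviation of the 3 members, the 5 nearest of the other tested features had r between 0.74 and 0.84. Values at the top of a ranking are high by selection, so they are descriptions. The lowest r of the other tested features was -0.72. The highest was MI0005028, with r = 0.84, a median level of 5.38 and a log2 fold change of -0.70 at d 124 against d 0 (adjusted p = 0.496). The second was bta-miR-323, a miRNA of the imprinted DLK1-DIO3 cluster, with r = 0.82 over all libraries and 0.87 with time removed. Its level was 4.73 ± 0.52 (SD, n = 4) at d 0, 3.72 ± 0.30 at d 92 and 4.01 ± 0.62 at d 124, so its lowest mean was at d 92 and not at d 124. The third was MI0004747, of a high median level of 13.48, with r = 0.80 and a log2 fold change of -0.20 at d 124 (adjusted p = 0.851). The sources used here pair neither of the identifiers without a name with one. For the same reason the other miRNAs of the HOX clusters, MIR10A, MIR10B and MIR615, and the let-7 family are not analysed here.

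Markers of other cells that could be paired with an identifier were 2 of 5 listed for blood cells and 1 of 1 for liver. At d 124 against d 0, the erythroid miRNA bta-miR-144 had a log2 fold change of 1.38 (adjusted p = 0.515) and bta-miR-142, a miRNA of leukocytes, 0.52 (adjusted p = 0.883). At d 92 against d 0 these were 1.54 and 0.81. Levels of bta-miR-144 lay between 9.95 and 12.50 at d 0, between 12.22 and 14.51 at d 92 and between 11.68 and 13.40 at d 124, and those of bta-miR-142 between 9.85 and 13.40 over all libraries. For bta-miR-122 of liver the log2 fold change against d 0 was 1.47 at d 92 (adjusted p = 0.857) and 0.48 at d 124 (adjusted p = 0.942). Its level at d 92 was 13.36 in steer 4, against 9.46, 9.35 and 9.95 in steers 1, 2 and 3. It was lower at d 92 than at d 0 in 1 of 4 steers. For the muscle miRNA bta-miR-208b the log2 fold change was -0.43 at d 92 (adjusted p = 0.928) and -0.97 at d 124 (adjusted p = 0.496). Steer 3, with the highest library of each member within d 92 and within d 124, had 12.22 and 13.40 of bta-miR-144 at those times. The part of these cells in the levels of the miR-196 family was not tested.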

How the data were processed

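The deposited values, 1 per feature and library and taken as log2, were made by the authors from reads aligned to bosTau4. They were normalized with the Quantile algorithm of StrandNGS (version not stated). The table holds 640 miRBase and 2072 Ensembl features, of which 1314 vary. Each feature's median over the 12 libraries is 0. Subtracted medians were recovered for 1300 features by matching values to levels that libraries share (tolerance 3e-06, at least 4 shared levels for features with that many distinct values). With base 2, recovered values sum to between 1552514 and 1579500 per library. A simulation of 1155 varying features gave back 1143 medians, all 1143 right.

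Limma 3.58.1 (R 4.3.3) was run over the 12 libraries with a term for time alone, as in the study's analysis of variance, using its trend and robust options for the spread. The trend runs on the mean of the median-centred values, and a trend on the recovered level was an alternative. Of the 368 features tested, 8 have no recovered median, and for these a library above the feature's lowest value counted as above the floor. In 20 simulations of d 124 against d 0 on 368 features, 42% of changes of 1 (log2), 86% of 2 and 97.5% of 3 were called at an adjusted p under 0.05. Over the simulations, 400 changes of each size were planted beside 6160 unchanged features. They were placed in features drawn at random, each with its own spread within times. The number planted and the spread set these shares, so they do not give the share for the members. Exact permutation tests were run with numpy 2.4.6.

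Replicate numbers stand for steers, as the animal codes in the labels show. After removal of time means, libraries of the same steer had r between -0.05 and 0.44 (median 0.12, 12 pairs). Those of different steers had r between -0.32 and 0.20 (median -0.03, 36 pairs), so the ranges overlap. P-values over libraries cover steers and sampling together. The 3 members, the lists and the tests were chosen with earlier results of these data known. Named besides the members are the 5 tested features most like the family in Pearson's r, unnamed identifiers being limited to 2. Names were taken from the paper's pairing with identifiers, and the reference table matched 0 of 640 miRBase identifiers.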

Additional observations from a re-analysis of the deposited data

How the results depend on the processing

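Each of the 12 comparisons of a member was lower at the later time or at the 12th rib under all 19 alternatives run, and 0 of the adjusted p-values passed 0.05. Many of the alternatives could not change the direction. The steer block, the choice of features and the trend settings leave a log2 fold change as it was. So does leaving out a library of a time that is not compared. At d 124 against d 0 these lay between 0.206 and 0.733, and the log2 fold change without 1 library ranged from -1.86 to -1.11 for bta-miR-196a-1, from -1.79 to -0.97 for bta-miR-196a-2 and from -1.52 to -0.92 for bta-miR-196b. An unadjusted p under 0.05 was kept in 14, 14 and 18 of the 19. With the steer as a replicate block, the adjusted p at d 124 against d 0 was 0.329 for each copy and 0.312 for bta-miR-196b, and the pairing changed no call at an adjusted p under 0.05. The block gave 24, 40, 6 and 28 features at an unadjusted p under 0.05 and 1.3-fold, against 19, 33, 5 and 19 without it, for d 92 against d 0, d 124 against d 0, d 124 against d 92 and d 124 against the mean of d 0 and d 92. In that order, all small RNA features, of which 1002 were tested, gave 45, 81, 38 and 64. With log2(value + 10) the counts were 12 at d 92 against d 0 and 2 at d 124 against d 92, and centred libraries gave 8 at d 124 against d 92. Without 1 library the counts ranged from 20 to 35 at d 124 against d 0, from 4 to 14 at d 124 against d 92 and from 10 to 22 at d 124 against the mean of d 0 and d 92. The trend of the spread on the recovered level, chosen after seeing the data, gave an F of 5.89 for the steer in bta-miR-196a-1 (adjusted p = 0.0497 from limma), where the fit reported gave 2.79 (adjusted p = 0.525). For bta-miR-196a-2 and bta-miR-196b the adjusted p of the steer from limma was then 0.0791 and 0.541. The cause was not tested. Depth per library is unknown, and 4 steers limit every comparison.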

Other observations

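With the copies of bta-miR-196a added on the linear scale, an addition made after seeing the data, the mean level (log2) was 10.55 at d 0, 9.77 at d 92 and 9.17 at d 124. The difference between d 124 and d 0 was -1.38, between the values of the single copies. Dixon's test for 4 samples flagged a library in 0 of 15 groups, over the 3 members and the 2 differences of bta-miR-196a-2 and bta-miR-196b from bta-miR-196a-1 at each time. With 4 values the test flags only extreme libraries, so it does not show that none is outlying.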
